A study of Mus musculus with 6 samples.

Results

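Insulin, phosphoinositide 3-kinase (PI3K) and mTOR signalling was examined at the RNA level in 3 Cav1KO and 3 WT mouse hearts, through 29 named genes of the pathway. Members were taken by symbol: a gene counted as measured where the array platform's annotation gave a probe set that symbol and no other, which held for 28 of the 29 members and 18193 genes in all. The brightest probe set of a gene, by mean over the 6 hearts, stood for it, and 27 members were among the 11486 genes whose brightest probe set passed a filter on low values. Rps6kb1, the S6 kinase of the mTOR pathway, had no such probe set and was not analysed here, and Irs2 was measured but fell below the filter.

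The Cav1KO hearts came from knockouts of Cav1, the gene of caveolin-1, and the WT hearts from wild types. All were from male mice aged 5 to 6 months that had been fasted for 6 hours. RNA of the heart tissue was read on 1 Affymetrix expression array per sample. The sources used here give neither strain nor deleted exons, nor whether every sample is an animal of its own. The p-values therefore rest on the spread among the 6 samples, part of which may be technical.

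Insulin binds its receptor, a tyrosine kinase, which phosphorylates the substrates Irs1 and Irs2. These recruit PI3K, whose lipid product brings the kinases Pdpk1 and Akt to the membrane, and Akt then acts on Gsk3, on the FOXO transcription factors, on the Rab GTPase regulators Tbc1d4 and Tbc1d1 that gate glucose transporter traffic, and on the Tsc1 and Tsc2 complex that restrains Rheb and mTOR. In the heart the pathway drives glucose uptake and protein synthesis. Caveolin-1, the coat protein of caveolae, binds the insulin receptor. Signalling runs mainly through phosphorylation, which an array of RNA does not measure.

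Signals are given as log2(intensity + 16) after quantile normalisation, and differences are Cav1KO minus WT on that scale, which understates the change of low genes. Differences were fitted with limma over 22519 probe sets and called at a Benjamini-Hochberg adjusted p of 0.05. Cav1 itself, the check of the labels, stood at 7.07, 6.87 and 6.86 in Cav1KO hearts and at 11.92, 11.91 and 12.05 in WT hearts. Summed deposited intensity per array ran from 11736722 to 12397257. Marker sums below use quantile normalised intensities. Cardiomyocyte markers were alike in sum, 162555 to 164689 in Cav1KO hearts against 163309 to 164955 in WT hearts, and none of the 10 was called. These markers lie at percentile 99.3 to 100 of all probe sets, where quantile normalisation leaves little room for arrays to differ. Their likeness therefore cannot show that the hearts held equal shares of cardiomyocytes. Some markers of other cells moved with genotype, and others of the same lists were not called. Of 10 endothelial markers 4 rose (Pecam1, Tek, Tie1 and Cldn5), with sums of 6294 to 7176 in Cav1KO hearts against 5173 to 5478 in WT hearts. Of 10 genes of the macrophage and monocyte list 6 rose, among them Ptprc, Laptm5, C1qa and Mrc1. That list summed to 5525 to 5853 in Cav1KO hearts against 4328 to 4848 in WT hearts. Of 9 fibroblast markers 3 rose (Postn, Col1a1 and Col3a1), with sums of 16584 to 20022 in Cav1KO hearts against 13808 to 15710 in WT hearts. None of 9 smooth muscle and pericyte markers was called, at sums of 17691 to 18068 in Cav1KO hearts and 17216 to 17415 in WT hearts. Adipocyte markers summed to 1514 to 1888 in Cav1KO hearts and 1933 to 3855 in WT hearts, with none of 6 tested called. The skeletal muscle list (2 of 8 measured genes tested), the blood list (2 of 3) and the liver list (1 of 3) had no called gene. Their part in the results below was not tested, and in whole heart tissue fewer cells of a type and less RNA per cell cannot be told apart.

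None of the insulin, PI3K and mTOR genes passed the test. Of the 27 tested members 0 were called higher and 0 lower, against a background of 2.97% of tested genes called higher and 1.07% called lower. At an unadjusted p of 0.05, 3 members were higher and 4 lower, or 11.1% and 14.8% of the 27, where 11.1% of all tested genes were higher and 11% lower. The 3 were Ptpn1, Cbl and Grb10, and the 4 were Foxo3, Tsc2, Tbc1d4 and Akt2. The lower count moved with the setting: it was 1 with intensities as deposited, 0 when scaled to a common array median, 1 without Cav1KO replicate 1 and 7 without Cav1KO replicate 3, while the higher count was 2 to 4 under all 16 alternatives. The 3 Cav1KO hearts lay above all WT hearts for 3 members and below them for 7, which is 11.1% and 25.9% of the members, with 13.5% and 15.2% over all tested genes. These shares lie near the background except for the members with Cav1KO hearts below WT, a share that was not tested.

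Differences of the members ran from -0.25 for Foxo3 to 0.30 for Ptpn1, with standard errors of 0.0328 to 0.0942. The 95% intervals of all 27 tested members stayed within a 1.5-fold change in either direction, as they did for 96% of all tested genes. For 24 members they stayed within 1.3-fold, and for 81.9% of all tested genes. Both limits were chosen after the values were seen, and each interval stands for 1 gene, with no adjustment. The outermost bounds were 0.747-fold, at Eif4ebp1, and 1.39-fold, at Ptpn1.

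**Figure D1:**
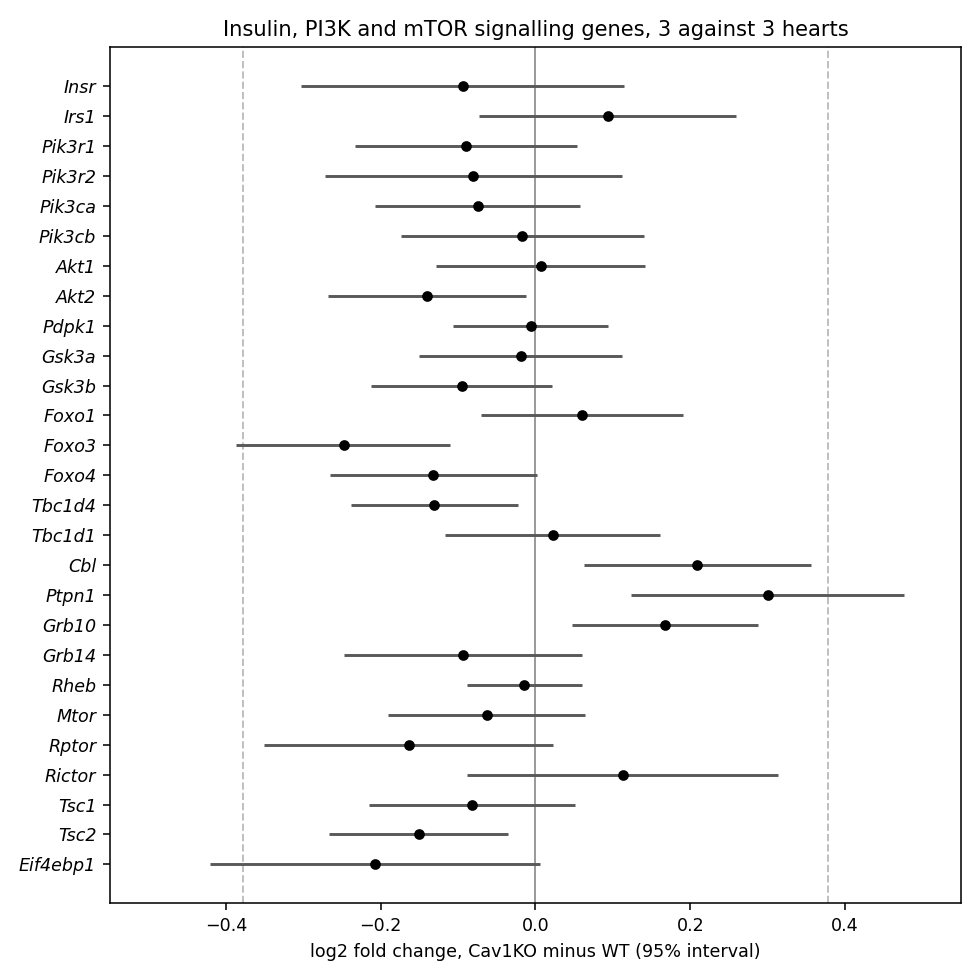
Difference in log2 signal between 3 Cav1KO and 3 WT hearts (x axis) for the 27 tested members (rows, in pathway order), with 95% intervals from limma as lines. Dashed lines mark a 1.3-fold change, and the points run from -0.25 at Foxo3 to 0.30 at Ptpn1.

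Set among all tested probe sets, the members lay within the range of those that were not called. Their median difference was -0.0745, beside -0.014 over all tested genes, and 19 of 27 were negative. That sign depended on the scaling. With intensities scaled to a common array median the members' median was 0.0137 and 13 were negative, beside a median of 0.0569 over all genes. The members' median lay below that of all tested genes in the main fit and under all 16 alternatives. The gap ran from -0.0679 with the upper 25% of probe sets to -0.0167 without Cav1KO replicate 1, and was not tested. The median size of a difference, regardless of sign, was 0.0932 for members and 0.0871 for all tested genes.

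**Figure D2:**
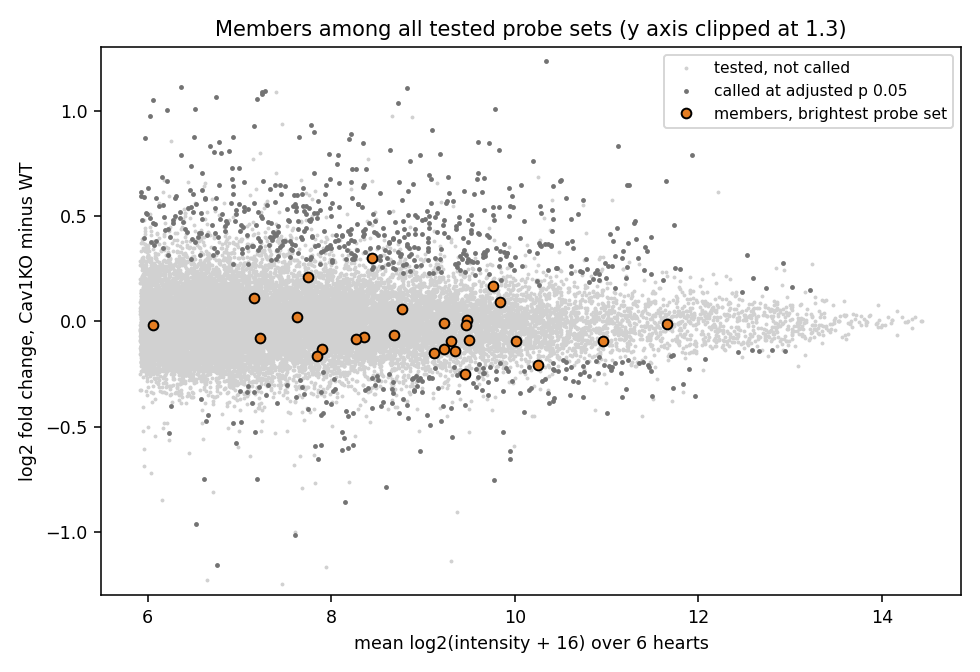
Difference in log2 signal, Cav1KO minus WT (y axis), against the mean log2 signal over 6 hearts (x axis) for all tested probe sets, clipped at a difference of 1.3 in either direction. Orange points are the 27 tested members at their brightest probe set, light grey points were not called and dark grey points were called. No orange point is at a called probe set.

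At the receptor, Insr, the insulin receptor, had 9.94, 9.92 and 10.04 in Cav1KO hearts and 9.85, 10.07 and 10.27 in WT hearts. The Cav1KO values lie inside the WT range, and the difference was -0.0942 (95% interval -0.30 to 0.11, limma adjusted p = 0.584). Its highest value came from WT replicate 3, the heart that also had the highest sum of adipocyte markers, 3855. Among other members, Irs1, Akt2 and Foxo4 were also highest in that heart, and Foxo3 and Grb14 were not. A part of fat cells in these values was not tested. The 2 other probe sets of Insr were below the filter.

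Irs1, the substrate that docks PI3K, had 9.93, 9.88 and 9.84 in Cav1KO hearts and 9.68, 9.72 and 9.96 in WT hearts, which overlap (difference 0.0932, limma adjusted p = 0.492). Irs2, the other main substrate and a gene that FOXO factors switch on, had a low signal. Its only probe set stood at 5.79, 5.83 and 5.86 in Cav1KO hearts and 5.95, 6.06 and 6.01 in WT hearts, so that all Cav1KO hearts were below all WT hearts by a mean of 0.18. With no filter on low values Irs2 entered the test at a difference of -0.18 (SE 0.0676) and did not pass (limma adjusted p = 0.272).

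Promoter sequence was matched by symbol from RefSeq (build GRCm38.p6), in windows of 300 bases, 250 before and 50 after a transcript start. Windows were found for 26 of the 29 members, 34 in all. A FOXO element (GTAAACA), an E-box (CACGTG) and an ETS element (CCGGAAGT) were searched on both strands, and no member window held more than 1 of them. The FOXO element was in 1 member window, of Akt1, or 2.94% against 3.65% of all 32851 windows, and the E-box in 3 windows, of Irs1, Irs2 and Rheb, or 8.82% against 7.15%. The ETS element was in 4 windows, of Pik3ca, Ptpn1, Mtor and Tsc2, or 11.8% against 3.89%. The member windows had a median GC content of 64.2%, against 52.7% over all windows, and a median of 27 CG pairs against 7. A match describes letters and not a bound site.

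The windows of the pair of receptor substrates are shown because both hold an E-box, in capitals. Only the signal of Irs2, which lay below the filter, separated the groups. Rheb, the other member with an E-box, overlapped, and a part of the E-box in any difference was not tested. The window of Irs1 lies at chr1:82291390-82291689 on the minus strand, with the E-box starting 115 bases before the transcript start. That of Irs2 is at chr8:11008880-11009179 on the minus strand, with the E-box starting 44 bases before it.
Irs1: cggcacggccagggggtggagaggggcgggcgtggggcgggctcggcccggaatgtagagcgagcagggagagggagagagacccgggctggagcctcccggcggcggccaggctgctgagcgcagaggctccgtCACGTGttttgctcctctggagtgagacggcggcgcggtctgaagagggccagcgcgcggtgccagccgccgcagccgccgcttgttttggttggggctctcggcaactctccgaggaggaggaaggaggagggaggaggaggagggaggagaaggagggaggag
Irs2: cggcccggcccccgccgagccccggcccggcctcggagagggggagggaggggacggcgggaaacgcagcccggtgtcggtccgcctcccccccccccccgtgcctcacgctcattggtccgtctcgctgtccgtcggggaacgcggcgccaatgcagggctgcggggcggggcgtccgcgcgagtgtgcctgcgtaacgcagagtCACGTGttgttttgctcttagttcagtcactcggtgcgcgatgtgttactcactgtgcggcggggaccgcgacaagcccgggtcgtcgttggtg

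Ptpn1, Cbl, Grb10 and Grb14 encode proteins that act at the receptor itself, and none of them passed after adjustment. Ptpn1, the tyrosine phosphatase PTP1B that removes phosphate from the receptor, had 8.65, 8.69 and 8.44 in Cav1KO hearts and 8.20, 8.33 and 8.35 in WT hearts. All Cav1KO hearts were above all WT hearts, the lowest of them, Cav1KO replicate 3, by a small margin. The difference was 0.30 (SE 0.078, 95% interval 0.12 to 0.48, limma adjusted p = 0.081), or 1.23-fold. Without Cav1KO replicate 3 Ptpn1 passed, at 0.38 (limma adjusted p = 0.0356). A dimmer probe set of Ptpn1 stood at 0.0366 (limma adjusted p = 0.81).

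Cbl, a ubiquitin ligase recruited to the active receptor, had 7.87, 7.84 and 7.85 in Cav1KO hearts and 7.54, 7.69 and 7.70 in WT hearts. The groups did not overlap, with a difference of 0.21 (SE 0.0648, limma adjusted p = 0.126), while the other 2 probe sets of Cbl stood at 0.12 and -0.00413. Grb10, an adaptor that binds the receptor and dampens it, had 9.84, 9.86 and 9.84 in Cav1KO hearts and 9.76, 9.70 and 9.58 in WT hearts. Here too the groups did not overlap (difference 0.17, SE 0.0532, limma adjusted p = 0.133). The probe sets of Grb10 disagreed in sign: the others stood at 0.14 and, with all Cav1KO hearts below all WT hearts, at -0.0914. Grb14, the related adaptor, had 10.76, 10.92 and 11.06 in Cav1KO hearts and 11.01, 11.03 and 10.97 in WT hearts, and overlapped (difference -0.0931, limma adjusted p = 0.459). With array weights, which give noisier arrays less influence, Grb10 passed (difference 0.21, limma adjusted p = 0.0448).

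The subunits of PI3K differed little. Pik3r1, the main regulatory subunit, had a difference of -0.0897 (limma adjusted p = 0.447), and its 4 tested probe sets ran from -0.13 to -0.0244, all negative. Pik3r2, the second regulatory subunit, had -0.0804 with overlapping groups. Pik3ca, the catalytic subunit p110 alpha that serves the insulin receptor, had 8.34, 8.28 and 8.34 in Cav1KO hearts and 8.36, 8.34 and 8.48 in WT hearts. These groups meet at the second decimal, and the difference of -0.0745 did not pass (limma adjusted p = 0.492), with the 4 other tested probe sets between -0.0216 and 0.0514. Pik3cb, the catalytic subunit p110 beta, stood close to the filter and had -0.0168. 

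Pdpk1, the kinase that activates Akt, was the steadiest of the members between hearts of 1 group: it had 9.24, 9.20 and 9.23 in Cav1KO hearts and 9.23, 9.23 and 9.24 in WT hearts. Its difference was -0.00611 (95% interval -0.11 to 0.0942). Akt1, the more widely expressed Akt, had a difference of 0.00712 (95% interval -0.13 to 0.14), and its other probe sets ran from -0.15 to 0.0736. Akt2, the form most tied to insulin and glucose uptake, had 9.19, 9.28 and 9.36 in Cav1KO hearts and 9.37, 9.42 and 9.46 in WT hearts. The groups did not overlap but nearly met. The difference was -0.14 (SE 0.0565, limma adjusted p = 0.214), and its other probe sets stood at -0.16, again without overlap, and -0.0304. Scaled to a common array median, Akt2 had -0.0616.

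Among the substrates of Akt, Gsk3a and Gsk3b, the kinases that restrain glycogen synthesis, had -0.019 and -0.095, neither past the threshold. The 6 tested probe sets of Gsk3b ran from -0.095 to 0.11, and at these extremes the groups did not overlap, in opposite directions. Tbc1d4, also called AS160, had 9.11, 9.18 and 9.21 in Cav1KO hearts and 9.31, 9.29 and 9.28 in WT hearts. All Cav1KO hearts were below all WT hearts at both of its probe sets, with differences of -0.13 (SE 0.0478, limma adjusted p = 0.18) and -0.14. Its relative Tbc1d1 had 0.022 with overlapping groups.

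Of the FOXO transcription factors, which Akt keeps out of the nucleus, Foxo3 came closest to the threshold of all members. It had 9.28, 9.32 and 9.41 in Cav1KO hearts and 9.53, 9.69 and 9.53 in WT hearts. Every Cav1KO heart was below every WT heart, also at the 2 dimmer probe sets. The difference was -0.25 (SE 0.0612, 95% interval -0.39 to -0.11, limma adjusted p = 0.0691), or 0.842-fold, with -0.22 (limma adjusted p = 0.0721) at the other tested probe set. Foxo3 passed with the upper 25% of probe sets (limma adjusted p = 0.0489) and with array weights (0.0456). With the intensities as deposited it had -0.19 (limma adjusted p = 0.241). Foxo4 had 7.86, 7.83 and 7.83 in Cav1KO hearts and 7.92, 7.94 and 8.05 in WT hearts, again without overlap (difference -0.13, limma adjusted p = 0.256). Foxo1 overlapped and had 0.06, with its other tested probe sets at 0.0396 and -0.0426.

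**Figure D3:**
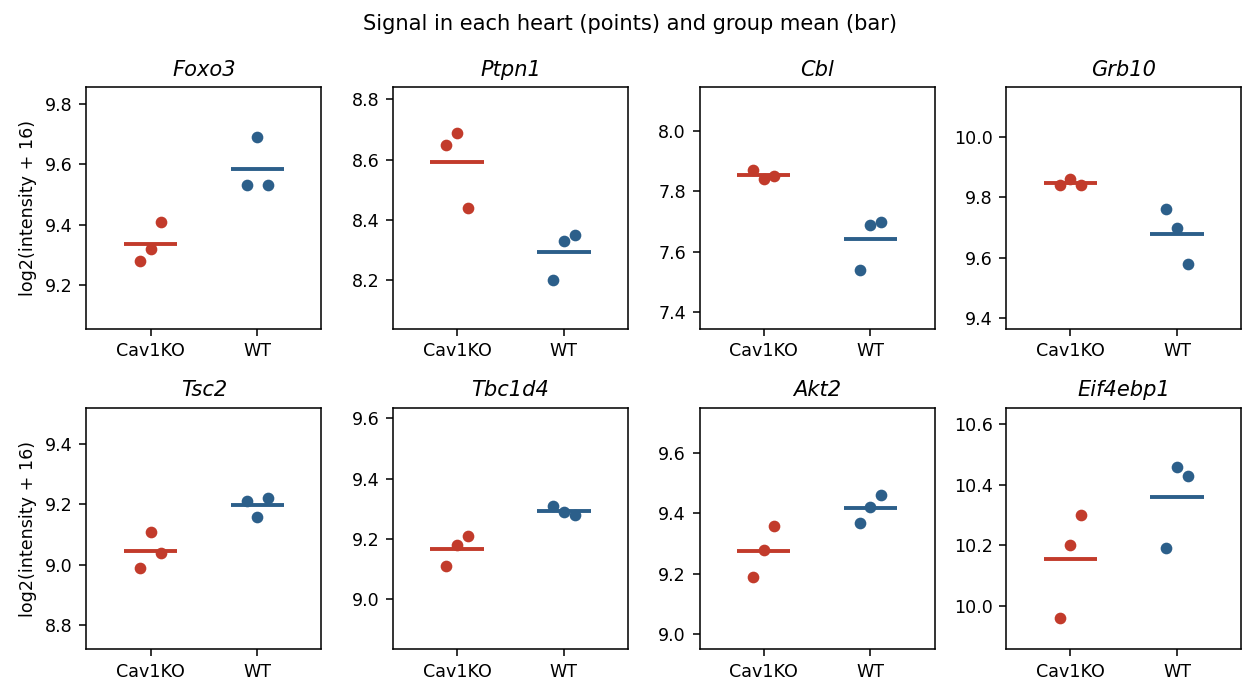
Log2(intensity + 16) in each Cav1KO heart (left, red) and WT heart (right, blue), with group means as bars, for the 7 members with the smallest p and for Eif4ebp1. Each panel spans 0.8 on the log2 scale. The groups are apart in 7 panels and overlap for Eif4ebp1, and no member passed after adjustment.

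In the mTOR branch the largest difference was that of Eif4ebp1, a repressor of translation that mTOR complex 1 switches off. It had 9.96, 10.20 and 10.30 in Cav1KO hearts and 10.19, 10.46 and 10.43 in WT hearts. The groups overlap at this probe set, where the members' spread between hearts of 1 group was widest, and the difference was -0.21 (SE 0.0942, limma adjusted p = 0.262). Its dimmer probe sets did not overlap and stood at -0.27 (SE 0.0698, limma adjusted p = 0.0799) and -0.25 (limma adjusted p = 0.102). All 3 thus lay on the same side, and the second by brightness came near the threshold.

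Tsc2, the GTPase-activating partner in the complex that restrains Rheb, had 8.99, 9.11 and 9.04 in Cav1KO hearts and 9.21, 9.16 and 9.22 in WT hearts. These groups did not overlap (difference -0.15, SE 0.051, limma adjusted p = 0.153). Tsc1, its stabilising partner, had 8.24, 8.23 and 8.21 in Cav1KO hearts and 8.23, 8.39 and 8.31 in WT hearts, which overlap (difference -0.0819). Rheb, the small GTPase that turns on mTOR complex 1, had 11.66, 11.64 and 11.66 in Cav1KO hearts and 11.65, 11.71 and 11.65 in WT hearts. Its difference of -0.0142 had the narrowest interval of all members, -0.0885 to 0.0601.

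The kinase Mtor had -0.0626 at its brightest probe set and -0.18 at a dimmer one, neither past the threshold. Rptor, the scaffold of mTOR complex 1, had 7.76, 7.70 and 7.83 in Cav1KO hearts and 8.10, 7.82 and 7.86 in WT hearts. WT replicate 1 stood apart above the other WT hearts, which met the Cav1KO range, and the difference was -0.16 (limma adjusted p = 0.3). Rictor, the scaffold of mTOR complex 2, had 7.20, 7.22 and 7.22 in Cav1KO hearts and 6.90, 7.22 and 7.18 in WT hearts. Here WT replicate 1 stood apart below, and the difference was 0.11 (limma adjusted p = 0.494).

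Probe sets of a member did not always point the same way. Of 77 member probe sets 60 were tested and 0 were called, the smallest limma adjusted p being 0.0691. Of the 16 members with more than 1 tested probe set, 8 had all differences on the same side: Pik3r1, Akt2, Pdpk1, Foxo3, Tbc1d4, Ptpn1, Mtor and Eif4ebp1. No further probe set differed from the brightest by over 0.3 on the log2 scale.

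**Figure D4:**
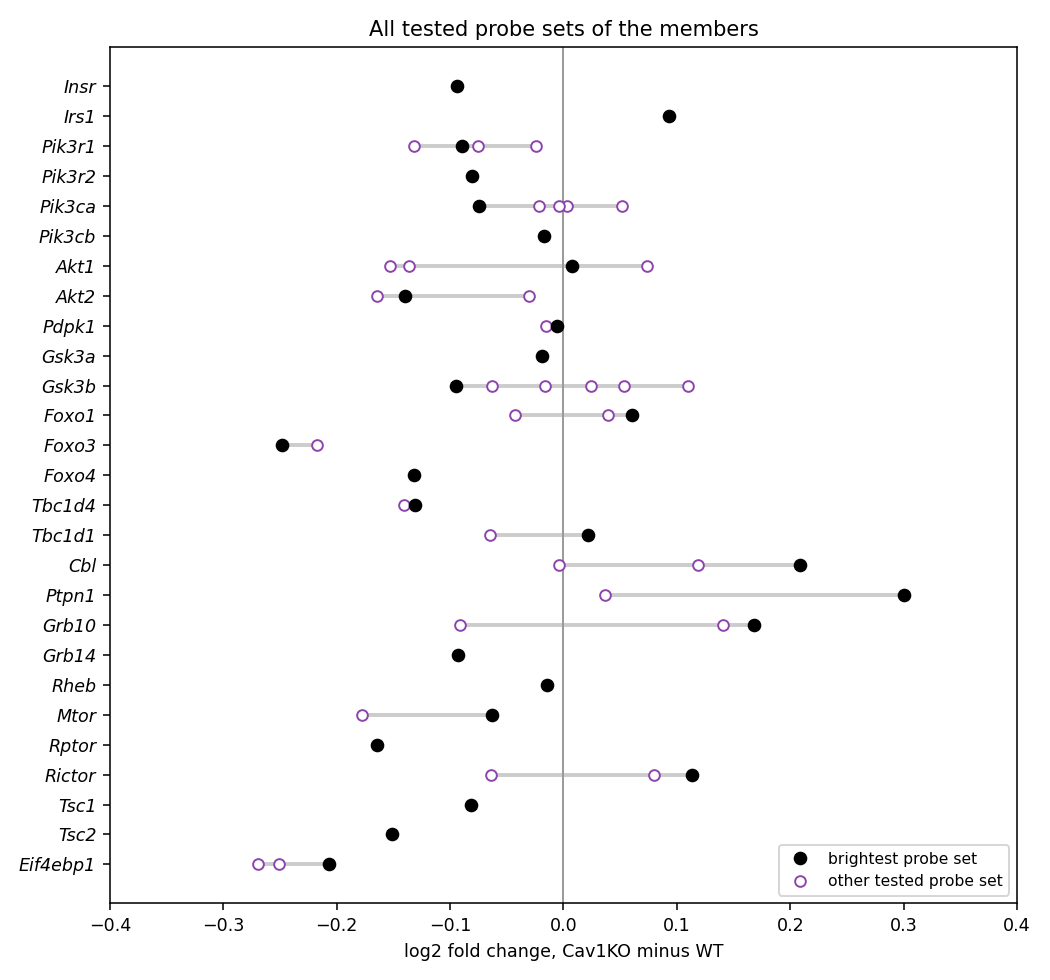
Difference in log2 signal, Cav1KO minus WT (x axis), at each tested probe set of the 27 tested members (rows). Filled points are the brightest probe sets and open points the others, joined by a grey line. All points of Foxo3 and Eif4ebp1 are at -0.21 or below, and those of Gsk3b span zero, from -0.095 to 0.11.

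The windows of 3 members are shown because they gave the smallest p in either direction (Foxo3 and Ptpn1) or shared an ETS element with opposite signs of difference (Ptpn1 and Tsc2). None of these differences passed. The other members with the element, Pik3ca and Mtor, had negative differences like Tsc2, at -0.0745 and -0.0626. The window of Foxo3 lies at chr10:42276646-42276945 on the minus strand and holds none of the searched motifs. That of Ptpn1 is at chr2:167932077-167932376 on the plus strand, its ETS element, in capitals, starting 20 bases after the transcript start, and that of Tsc2 at chr17:24632578-24632877 on the minus strand, its element starting 8 bases before it.
Foxo3: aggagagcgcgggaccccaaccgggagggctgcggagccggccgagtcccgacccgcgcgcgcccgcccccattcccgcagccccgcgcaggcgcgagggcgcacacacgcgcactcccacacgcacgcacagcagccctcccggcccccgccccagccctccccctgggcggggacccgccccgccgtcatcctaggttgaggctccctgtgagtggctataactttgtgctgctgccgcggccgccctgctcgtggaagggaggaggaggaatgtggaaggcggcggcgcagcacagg
Ptpn1: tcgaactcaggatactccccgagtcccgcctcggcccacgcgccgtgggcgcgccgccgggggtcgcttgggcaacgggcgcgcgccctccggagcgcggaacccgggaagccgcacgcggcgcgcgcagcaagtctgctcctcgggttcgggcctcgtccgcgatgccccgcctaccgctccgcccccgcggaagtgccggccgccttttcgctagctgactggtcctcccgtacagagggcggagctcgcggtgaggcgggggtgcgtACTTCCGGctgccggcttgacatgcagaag
Tsc2: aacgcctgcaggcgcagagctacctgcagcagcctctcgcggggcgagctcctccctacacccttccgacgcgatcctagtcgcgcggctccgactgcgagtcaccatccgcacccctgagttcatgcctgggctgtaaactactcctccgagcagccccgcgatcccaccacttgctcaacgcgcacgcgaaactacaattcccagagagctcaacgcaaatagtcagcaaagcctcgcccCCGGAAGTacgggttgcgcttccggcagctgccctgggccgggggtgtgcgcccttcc

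Other genes of the pathway were read from 7 further lists holding 136 genes that are not members, of which 120 were tested. Among these 1 rose, 0 fell and 119 did not pass, and at an unadjusted p of 0.05 there were 8 higher and 19 lower. Over all tested genes 2.97% were called higher and 1.07% lower, and 11.1% were higher and 11% lower at an unadjusted p of 0.05, a background that holds for each list below. No list was tested against it. The 120 genes had a median difference of -0.0381. The gene that rose was Ptpre, a receptor-type tyrosine phosphatase that can act on the insulin receptor and is also expressed in macrophages. It had 7.07, 6.82 and 6.87 in Cav1KO hearts and 6.18, 6.42 and 6.39 in WT hearts, a difference of 0.59 (SE 0.0941, limma adjusted p = 0.0138). The groups were far apart, and a dimmer probe set rose by 0.44 (limma adjusted p = 0.0489). Without Cav1KO replicate 1 Ptpre had 0.51 and did not pass (limma adjusted p = 0.0724). Genes of the macrophage and monocyte list moved the same way, 6 of 10 called. A part of these cells in the rise of Ptpre was not tested.

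In the list of other receptor adaptors, phosphatases and brakes, 1 of 20 tested genes rose (Ptpre) and 0 fell, with a median of 0.0423. Next by p was Socs3, a cytokine-induced inhibitor that also acts on the insulin receptor, at 7.42, 7.38 and 7.14 in Cav1KO hearts and 7.08, 6.99 and 6.94 in WT hearts (difference 0.31, limma adjusted p = 0.0935), followed by Gab1, a docking protein, at -0.19. Of 16 other PI3K genes 0 passed (median -0.0303), and at an unadjusted p of 0.05 there were 0 higher and 1 lower. Pik3ip1, an inhibitor of PI3K, had -0.38 (limma adjusted p = 0.1) and Pik3r3, a regulatory subunit, 0.19.

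None of 31 other mTOR genes passed (median -0.0481), with 3 higher and 2 lower at an unadjusted p of 0.05. Flcn, folliculin, had -0.21 and Ddit4l, an inhibitor of mTOR, -0.20, both with all Cav1KO hearts below all WT hearts and limma adjusted p of 0.13 and 0.136. Of 10 AMPK and LKB1 genes 0 passed (median -0.076), with 0 higher and 3 lower before adjustment (all tested genes 11.1% and 11%), and the subunits Prkab1 and Prkag1 stood lowest by p at -0.21 and -0.16.

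None of 16 genes of GLUT4 traffic passed (median 0.0335), with 2 higher and 2 lower at an unadjusted p of 0.05. Slc2a4, the insulin-regulated glucose transporter GLUT4, had 11.17, 11.18 and 11.25 in Cav1KO hearts and 11.31, 11.34 and 11.38 in WT hearts. These groups do not overlap, and the difference was -0.15 (SE 0.039, limma adjusted p = 0.0873). Sort1, sortilin, a sorting receptor of GLUT4 vesicles, had -0.295 (limma adjusted p = 0.119).

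Downstream, 0 of 21 tested FOXO target genes passed (median -0.0628), with 1 higher and 6 lower before adjustment (all tested genes 11.1% and 11%), in a list that includes the member Insr. Klf15, a metabolic transcription factor, had 8.41, 8.68 and 8.81 in Cav1KO hearts and 8.93, 9.13 and 8.97 in WT hearts (difference -0.38, limma adjusted p = 0.0839). All its Cav1KO hearts were below all WT hearts. Cited2, named after its values were seen, fell at a dimmer probe set by 0.37 (limma adjusted p = 0.0283) and had -0.24 at its brightest (limma adjusted p = 0.139). Pck1, which makes glucose or glycerol precursors in liver and fat, had 5.92, 5.91 and 6.65 in Cav1KO hearts and 6.58, 7.99 and 8.65 in WT hearts (difference -1.58, limma adjusted p = 0.0983). Its groups overlap.

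Of 8 tested genes that insulin induces for lipid synthesis and glycolysis 0 passed (median -0.13), with 0 higher and 3 lower before adjustment (all tested genes 11.1% and 11%). Mlxipl, the carbohydrate response factor ChREBP, had -0.18 (limma adjusted p = 0.123). Fasn, fatty acid synthase, had 7.28, 7.39 and 7.66 in Cav1KO hearts and 7.87, 7.74 and 9.01 in WT hearts (difference -0.77, limma adjusted p = 0.187). Scd1, the fatty acid desaturase, chosen after its values were seen, had 8.45, 8.25 and 9.51 in Cav1KO hearts and 9.16, 9.38 and 11.08 in WT hearts (difference -1.14, limma adjusted p = 0.234). For Pck1, Fasn and Scd1 alike the highest WT value was that of replicate 3 and the highest Cav1KO value that of replicate 3. The adipocyte marker Adipoq, not called and named after its values were seen, had the same pattern. It had 6.34, 6.12 and 8.12 in Cav1KO hearts and 7.91, 8.63 and 9.70 in WT hearts. Of the other adipocyte markers Ucp1, Cidea and, below the filter, Cidec and Lep shared this pattern. Pparg, Lipe and Retn did not. The part of fat cells in these differences was not tested.

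**Figure D5:**
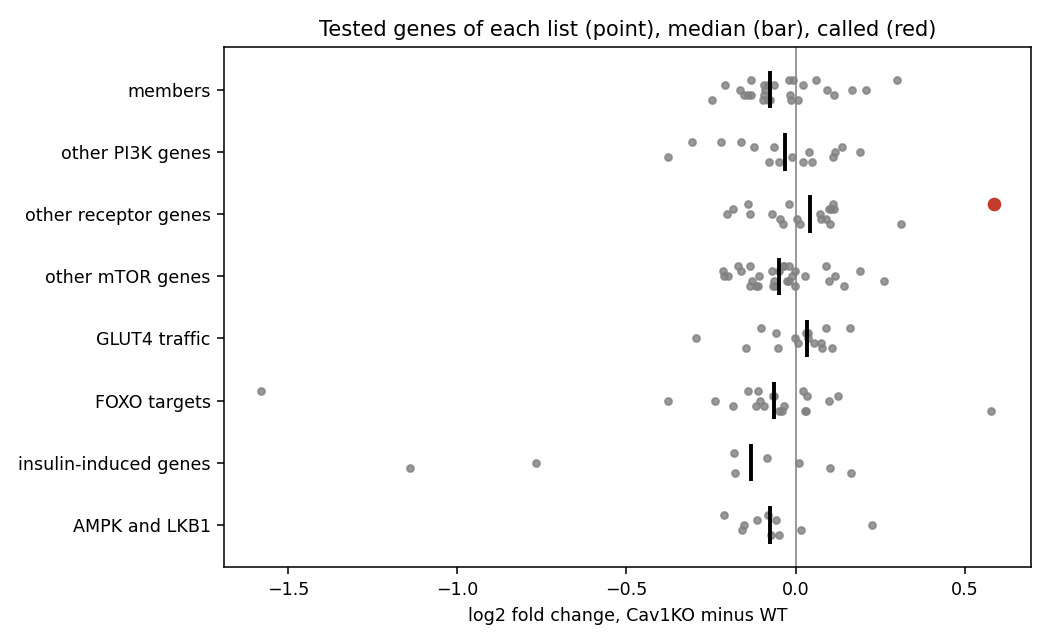
Difference in log2 signal, Cav1KO minus WT (x axis), of the tested genes (points) of the members and of 7 other lists of the pathway (rows), with the list median as a bar. The red point is Ptpre at 0.59, the only gene of these lists called at its brightest probe set, and the far left points are Pck1 at -1.58 and Scd1 at -1.14.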

How the data were processed

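The authors deposited 1 linear intensity for each of 45101 probe sets in each of 6 heart samples. The submitters' processing notes name GCOS 1.4 without saying what it did. Background correction, summarisation and scaling are not given in the sources used here. Labelling used 2 ug of RNA, per the labels' protocols. Per array, the median intensity was 43.9 to 45.8, and at most 2252 values were identical in any pair of arrays.

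Intensities were quantile normalised and logged as log2(intensity + 16) with limma 3.58.1 in R 4.3.3. After 64 control probe sets were left out, the upper 50% by mean, 22519, were tested, Cav1KO minus WT, by lmFit followed by eBayes (trend on). There was no covariate. The Benjamini-Hochberg adjustment ran over all 22519. The number of arrays limits the precision. The fit was also run on simulated arrays with noise drawn independently for each probe set. No result here rests on that run, and it did not cover the scaling of the arrays.

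Gene names are those of the array platform's 2016 annotation, in which 34945 probe sets carried 1 symbol, 932 several and 9160 none. Symbols were used as given there. Named are all members, the called genes of each other list and otherwise its 2 with the smallest p, and up to 4 called cell type markers per list. Cited2, Scd1 and the adipocyte markers were named after their values were seen. Members and lists were chosen with earlier results of these data known. Alternatives covered scaling, pseudocount, filter, variance model, array weights, each array left out, and averaging over all probe sets per gene. Cav1KO replicate numbers only name the samples.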

Additional observations from a re-analysis of the deposited data

How the results depend on the processing

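Under 16 alternatives the counts of called members stayed at 0, except for 1 lower (Foxo3) with the upper 25% of probe sets, 1 higher (Grb10) and 1 lower (Foxo3) with array weights, and 1 higher (Ptpn1) without Cav1KO replicate 3. Leaving out single arrays gave 0 to 1 called higher and 0 lower. The members' median was -0.00938 as deposited, 0.0137 scaled to a common array median, -0.0403 when probe sets were averaged per gene and -0.0779 to -0.0312 with single arrays left out. Of the 27 tested members 11 changed sign under some alternative, none while called. The mTOR, insulin-induced and AMPK lists had 0 called under all alternatives that were run, the receptor list 0 to 2 higher and 0 to 1 lower, the FOXO target list 0 to 1 in either direction, and the PI3K and GLUT4 lists 0 higher and 0 to 1 lower. Over all tested probe sets 531 were called higher and 185 lower, against 577 and 58 as deposited, 575 and 40 scaled to a common array median, 421 and 103 with no filter, 341 and 73 without a trend, 780 and 392 with array weights, and 154 to 549 and 35 to 195 with single arrays left out. Ptpre was not tested with the upper 25% of probe sets. The cause of these changes was not tested. No paired analysis was possible because the Cav1KO labels carry no replicate number that the WT labels share.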
